A study of Mus musculus with 8 samples.

Results

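This section describes transcript models of the GENCODE biotype processed_transcript that were read by nanopore direct RNA sequencing in P19 cells, a mouse embryonal carcinoma line kept undifferentiated. The members were chosen by biotype: reads of the table's mRNA class on models whose biotype name contains lincRNA, lncRNA, antisense or processed_transcript, without names containing pseudogene and without the genes Gas5 and Snhg. The mRNA class used here held 14 biotypes, and all reads that met the rule carried the name processed_transcript. They numbered 48682, or 2.53% of the 1926118 reads kept, on 1475 of 27609 transcripts and 1230 of 13120 genes. The working name of this set was long noncoding RNA, and the gene types of its models went against it. Of 42 names of well-known long noncoding or formerly noncoding genes that were looked up, among them Malat1, Neat1, Meg3, H19 and Xist, 3 had reads in the class, and none of these reads belonged to the set. Since no class of the table used here carried a lincRNA, lncRNA or antisense biotype (the other 9 classes are repeats, spike-ins and the like), this look-up says nothing about whether the cells express such genes. By the gene types of a later GENCODE release (vM21, same assembly), 63.4% of the set's reads lay on transcribed processed pseudogenes and 32.6% on protein-coding genes, whereas lincRNA genes held 19 reads and antisense genes 1 read. The members are therefore called processed_transcript models below.

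The cells were exposed to MHY1485 (MHY), a compound used to activate the mTOR kinase, at 10 µM, or to its solvent DMSO alone, for 24 h or 48 h. Each of the 4 groups (DMSO 24 h, MHY 24 h, DMSO 48 h and MHY 48 h) had 2 libraries, and all cells belonged to the same line. Libraries are named by the numbers of the table, 21 and 23 at 24 h and 24 and 25 at 48 h, which are names and not hours. Each library held 178369 to 316546 reads, of which 4348 to 8107 fell on processed_transcript models. Markers of P19 cells were read in all libraries (Pou5f1, 467 to 906 reads per library, and Utf1, 66 to 147), whereas of the neuronal genes Tubb3 had 94 reads in all, Map2 6 and Dcx 0, and of the endodermal genes Gata6 had 3 and Sox17 and Afp 0. MHY library 24 at 48 h stood apart, with the shortest median tail of all libraries on these models (93.0 nt) and on the other transcripts (92.35 nt). Pooled results and calls on these models at 48 h that move by over 1.5 times without it are given with and without it.

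As background, processed_transcript is an annotation class for spliced or unspliced models in which no open reading frame was accepted. It gathers very different RNAs. A processed pseudogene arises when an mRNA is copied back into DNA and inserted elsewhere in the genome, so that the copy lacks introns and resembles the mature mRNA, and such a copy is called transcribed when RNA of it has been seen. In other cases the model is an isoform of a coding gene that carries a retained or alternative exon. Direct RNA sequencing starts at the poly(A) tail, so each read gives 1 tail length and the sequence that lies next to it, and a read is placed on whichever annotated model it matches best.

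Most models were read rarely. A single read was seen for 405 of the 1230 genes and fewer than 10 reads for 961. The 89 genes with 30 or more reads held 88.3% of the set's reads, and the lowest of these had 30 reads while the highest below the limit had 29. The set was split by whether the gene also had a protein-coding transcript in the table. Genes without one (144 genes, 19 of them with 30 or more reads) held 38474 reads. Genes with one (1086 genes, 70 of them with 30 or more reads) held 10208 reads. Of the 19 genes, vM21 lists 15 as transcribed processed pseudogenes, 1 as a transcribed unprocessed pseudogene (6820431F20Rik), 2 as protein-coding genes (Vmn2r97 and Tcp11l1) and 1 as a processed_transcript gene (Cct6a). The leading 3 genes, Rps2-ps10, Rps26-ps1 and Vmn2r97, took 61.3% of the reads, and Rps2-ps10 alone took 35.9%.

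The sequences of these models show how close they lie to coding mRNAs, and the windows below are printed because tail lengths were assigned across such small differences. Each main model was compared by blastn with the protein-coding transcripts of the table (vM21 sequences, mm10). For 14 of the 19 genes, the closest coding transcript of another gene was at least 95% identical over at least 50% of the model, and these 14 models held 73.8% of the set's reads. Rps26-ps1 (ENSMUST00000077208, chr8:107439131-107439579, minus strand, 449 nt) differed from Rps26, which encodes a protein of the small ribosomal subunit, at 4 of 429 aligned positions, 2 of them among 345 coding bases. A window of 90 coding bases contains 1 of these (C27T, counted from the first base shown, Rps26 base first), in capitals. It lies at chr8:107439470-107439559 (minus strand) for the copy and at chr10:128626151-128626240 (minus strand) for Rps26.
Rps26-ps1: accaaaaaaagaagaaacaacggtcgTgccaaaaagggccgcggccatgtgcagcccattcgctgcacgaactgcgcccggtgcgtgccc
Rps26: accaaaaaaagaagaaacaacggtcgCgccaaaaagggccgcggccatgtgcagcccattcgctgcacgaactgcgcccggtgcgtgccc

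Gpx4-ps2 differed from Gpx4, the peroxidase that reduces lipid hydroperoxides, at 2 aligned positions, both within the 538 coding bases compared. Rpl37rt differed from Rpl37, a large-subunit ribosomal protein gene, at 1 of 291 coding bases. Windows of 60 coding bases are shown with the differing base in capitals (C25T for Gpx4-ps2 and G25A for Rpl37rt, coding gene first). They lie at chr10:45875431-45875490 (Gpx4-ps2, plus strand), chr10:80054700-80054759 (Gpx4, plus strand), chr5:115103238-115103297 (Rpl37rt, minus strand) and chr15:5118567-5118626 (Rpl37, plus strand).
Gpx4-ps2: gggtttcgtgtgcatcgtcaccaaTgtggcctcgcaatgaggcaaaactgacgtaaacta
Gpx4: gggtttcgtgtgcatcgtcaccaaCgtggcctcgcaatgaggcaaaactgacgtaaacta
Rpl37rt: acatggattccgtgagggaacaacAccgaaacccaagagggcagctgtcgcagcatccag
Rpl37: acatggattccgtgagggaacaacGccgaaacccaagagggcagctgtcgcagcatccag

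Other models had no difference at all from a coding transcript over the aligned part. These were Gm10275 against Rpl12 and Gm15500 against Rpl5 (both large-subunit ribosomal proteins), Gm10177 against Sec61g (a subunit of the endoplasmic reticulum translocon), Gm10175 against Atp5g2 (a subunit of ATP synthase), Gm5641 against Hnrnpa3 (an RNA-binding protein) and Gm9797 against Timm8a1 (a chaperone of mitochondrial import). Gm10275 (chr10:29698746-29699380, minus strand) and Rpl12 were identical over 495 coding bases, of which the following 60 lie at chr10:29699194-29699253 in the copy and at chr2:32962049-32962108 (plus strand) in Rpl12.
Gm10275 and Rpl12: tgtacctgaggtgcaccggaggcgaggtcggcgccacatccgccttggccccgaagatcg

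Mapping quality, the deposited score of how clearly a read was placed, was lower on these models. A score of 10 or more was reached by 57.7% of reads on processed_transcript models and by 71.8% of reads on other transcripts, and a score of 0 by 23.2% and 13.1%. Among the models, the share at 10 or more was 82.5% for Rps2-ps10, 69.9% for Rps26-ps1 and 61.4% for Vmn2r97. It was 0.0418% for Gm10275, and it was 0 for Gm15500, Gm10175, Gm5641, Ppp1ccb and Gm9797. Cct6a (99.6%) and 2810025M15Rik (94.7%), for which no similar coding transcript of another gene was found, were placed with high scores. Reads of the exact copies cannot be told apart from reads of their coding gene where the sequences are the same, so that level and tail of these models are uncertain.

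The 3′ ends of the reads fell into different patterns. On Rps2-ps10 and Rps26-ps1, 99.6% of reads ended within 50 nt of the annotated end of the model. Over all 80 processed_transcript models with 30 or more reads that are in vM21, the median share of reads ending there was 98.3%, compared with 90.6% over 6166 other transcripts of the same minimum. By contrast, 0% of the reads of Rpl37rt and of Vmn2r97 ended within 50 nt of the model's end. Rpl37rt is 682 nt long and its reads ended at positions 399 to 438, while its similarity to Rpl37 ends at position 419.

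The letters AATAAA or ATTAAA, the common poly(A) signals, were searched in the last 50 bases of each model, on the transcript strand. At least 1 of them was found in 62 of 80 processed_transcript models (77.5%) and in 81.9% of other transcripts. AATAAA alone was found in 67.5% and 66.7%. The last 30 bases of a pair of models are shown with AATAAA in capitals, for Gm10275 (chr10:29698746-29698775, minus strand) and 2810025M15Rik (chr1:157420207-157420236, plus strand).
Gm10275: ttccAATAAAagactatctgataaccagtg
2810025M15Rik: aaggttgtAATAAAgtgttggttgagtaac

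Vmn2r97 bears the name of a vomeronasal receptor, a family of pheromone receptors of sensory neurons. Its model (ENSMUST00000232325, chr17:18914300-18933667, 5 exons, 3711 nt) was read on the last exon only (chr17:18931500-18933667). All 5732 reads began within that exon, and 94.8% of them began between positions 1600 and 1700 of the model. The reads ended at a median of 1130 nt before the end of the model. None began in the 4 exons before it. From base 1547 of the model, inside the last exon, to its end, the sequence was 95.3% identical to a stretch of D10Wsu102e over 2169 aligned bases. The whole gene D10Wsu102e had 5262 reads, and where on it they lay was not examined. The name Vmn2r97 is used below for the reads placed on this exon, and expression of the receptor's coding exons was not shown by them.

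**Figure D1:**
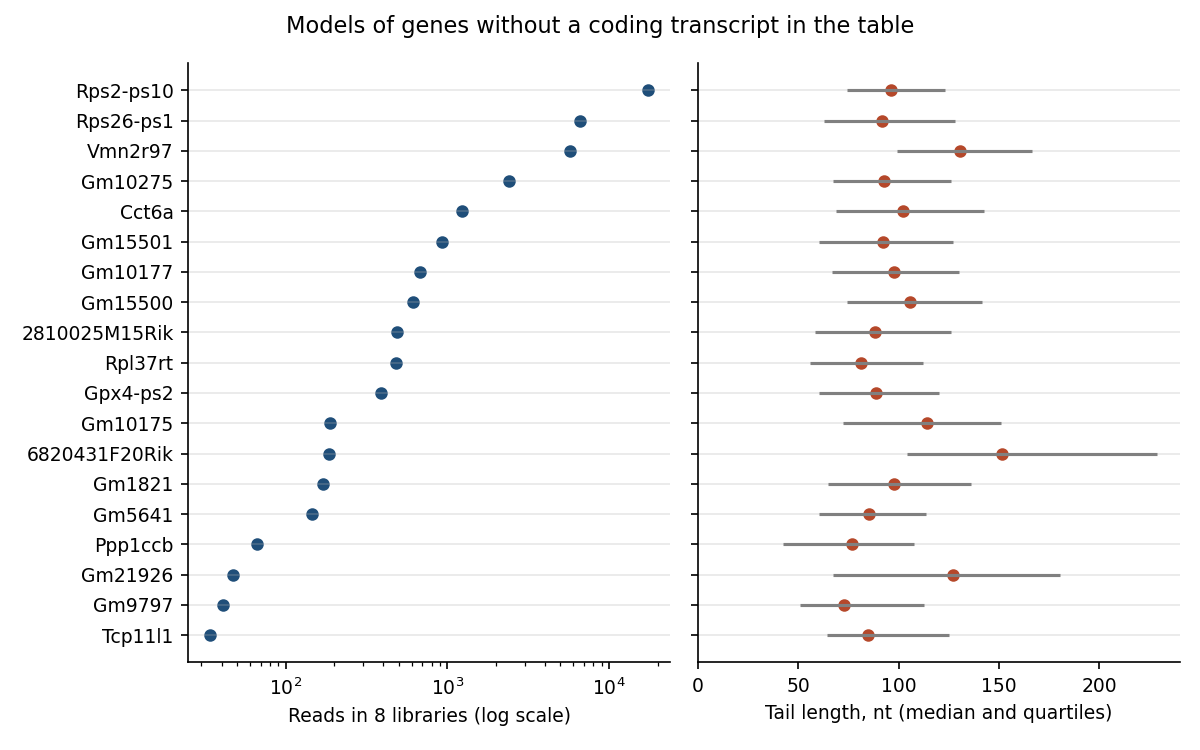
Reads in the 8 libraries (left, log scale) and tail length in nt (right, point at the median and line from the lower to the upper quartile of reads) of the 19 genes without a coding transcript in the table and with 30 or more reads. Rps2-ps10 had most reads (17500), and medians ranged from 72.86 nt (Gm9797) to 151.52 nt (6820431F20Rik).

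Median tails varied widely among the models. Over the 19 genes the medians ran from 72.86 to 151.52 nt with a middle value of 92.6 nt. Over the 70 genes with a coding transcript in the table they ran from 63.46 to 140.68 nt with a middle value of 98.6 nt. The middle value over 5773 other genes with 30 or more reads was 105.0 nt. Among models with 100 or more reads whose gene had no coding transcript in the table, the 5 with the shortest medians were Rpl37rt (81.4 nt), Gm5641 (85.0 nt), 2810025M15Rik (88.3 nt), Gpx4-ps2 (88.5 nt) and Rps26-ps1 (91.7 nt). The 5 with the longest were 6820431F20Rik (151.5 nt), Vmn2r97 (130.5 nt), Gm10175 (114.0 nt), Gm15500 (105.6 nt) and Cct6a (102.2 nt), the last being a chaperonin subunit gene. These extremes were picked by their values and were not tested.

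The leading 3 models had different tail profiles. Tails of Rps2-ps10 were the least spread, with quartiles of 74.5 and 123.0 nt, and 0.531% of its reads had tails shorter than 30 nt. The bin from 80 to 90 nt was its most frequent (11.8% of reads). Rps26-ps1 had quartiles of 62.8 and 128.2 nt, and 2.41% of its reads lay under 30 nt. Vmn2r97 had quartiles of 99.2 and 166.5 nt and its most frequent bin was 120 to 130 nt. The remaining models together had their most frequent bin at 60 to 70 nt and the other transcripts at 70 to 80 nt.

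**Figure D2:**
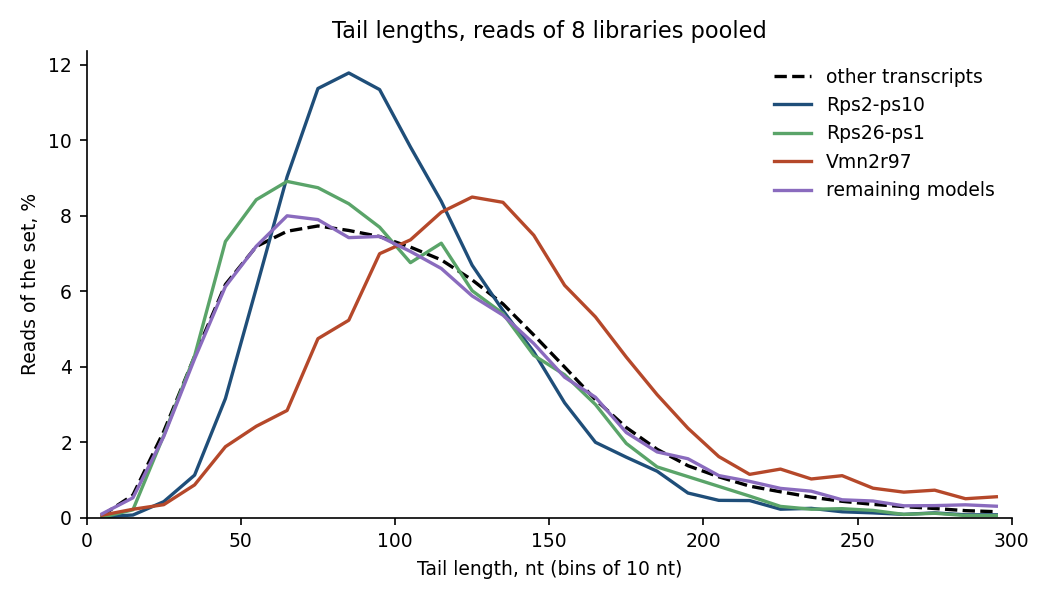
Share of reads (%) by tail length (nt, bins of 10 nt) for Rps2-ps10, Rps26-ps1, Vmn2r97, the remaining processed_transcript models and all other transcripts (dashed), with the 8 libraries pooled. The curve of Vmn2r97 peaks at 120 to 130 nt, to the right of that of Rps2-ps10 at 80 to 90 nt.

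Pooled over all models, fewer reads had very short tails than among other transcripts, but the strata of models differed. Models of genes without a coding transcript in the table had 1.18% of reads under 30 nt and were below other transcripts in 8 of 8 libraries. Models of genes with a coding transcript, which are 1086 of the 1230 genes, had 3.53% and were above other transcripts in 8 of 8 libraries. Reads with tails under 30 nt made up 1.58% (Wilson 95% interval 1.26 to 1.98%) and 1.26% (1.02 to 1.55%) of the model reads in DMSO libraries 21 and 23, and 1.31% (1.05 to 1.64%) and 1.26% (0.973 to 1.64%) in MHY libraries 21 and 23. At 48 h they made up 1.68% (1.36 to 2.07%) and 1.45% (1.21 to 1.73%) in DMSO libraries 24 and 25, and 2.48% (2.16 to 2.84%) and 2.11% (1.77 to 2.52%) in MHY libraries 24 and 25. The shares of other transcripts were higher in each library, from 2.19% to 4.52%. The difference, models minus others, was -1.23 percentage points ± 0.398 (SD over 8 libraries), and it was negative in 8 of 8 libraries (two-sided exact sign-flip permutation test, p = 0.00781, the smallest that 8 libraries can give). Without Rps2-ps10 the difference was -0.597 points, and without the leading 3 genes it was -0.123 points and no longer passed (exact sign-flip permutation test over 8 libraries, p = 0.273).

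Median tails of the pooled models were 1.33 nt ± 1.37 (SD over 8 libraries) longer than those of other transcripts (exact sign-flip permutation test over 8 libraries, p = 0.0312), with a positive difference in 6 of 8 libraries. This call was lost when any of 6 of the 8 libraries was left out (all but MHY libraries 23 and 25), with an exact sign-flip permutation p of 0.0625 over the 7 that remained. The difference was 4.80 nt without Rps2-ps10 and -0.457 nt without the leading 3 genes (exact sign-flip permutation test over 8 libraries, p = 0.594). The share of reads with tails of 30 to 90 nt was 1.20 points lower on average among the models (-1.20 ± 1.61, SD over 8 libraries) and did not pass (exact sign-flip permutation test over 8 libraries, p = 0.0625). It passed without MHY library 24 or MHY library 25 (-1.54 and -1.40 points, exact sign-flip permutation p = 0.0469 each over 7 libraries). The 3 pooled measures come from the same reads and their p-values were not adjusted for each other.

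**Figure D3:**
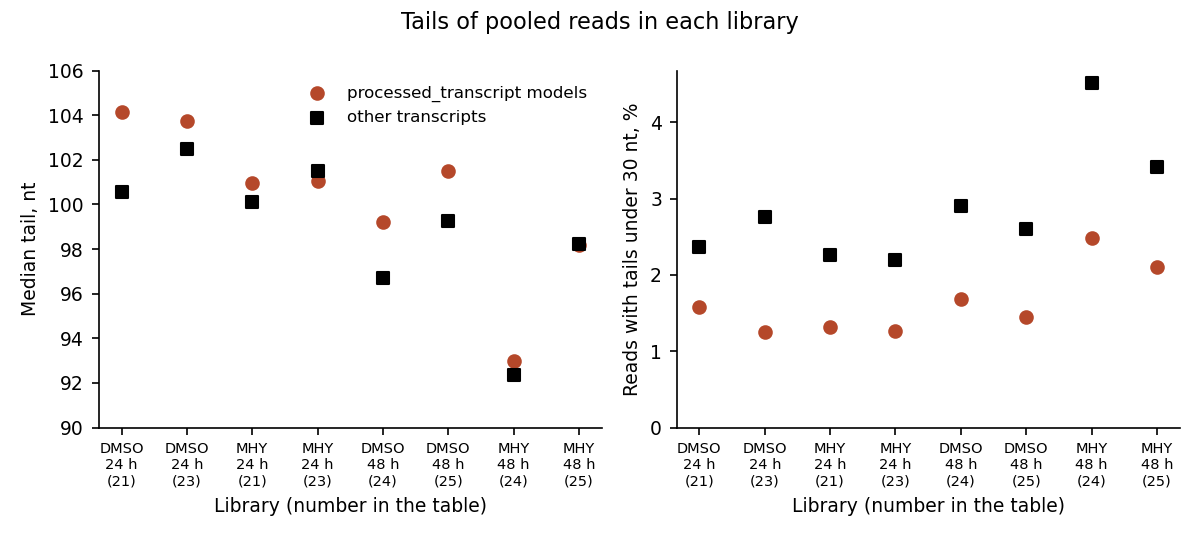
Median tail in nt (left, axis not starting at 0) and share of reads with tails under 30 nt in % (right) of pooled reads on processed_transcript models (circles) and other transcripts (squares), 1 point per library with its number in the table below the group. In the right panel the circles lie below the squares in 8 of 8 libraries, and in the left panel both are lowest in MHY library 24 at 48 h.

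The models were next set beside the coding gene they resemble, in the same libraries, a comparison added after the data had been seen. For 14 pairs of a model and its closest coding gene and for the 5 most-read models of genes with a coding transcript, the median tail was taken in each library and the difference was tested by an exact sign-flip permutation test over 8 libraries, with Benjamini-Hochberg adjustment over the 19 pairs. No pair passed at an adjusted p under 0.05, and 5 pairs had an unadjusted p under 0.05. The smallest exact sign-flip permutation p that 8 libraries can give is 0.00781. Pairs at this limit had an adjusted p of 0.0742, so the lack of a pass says little.

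Rps26-ps1 had shorter tails than Rps26 in 8 of 8 libraries. Its medians were 96.3 and 96.1 nt in DMSO libraries 21 and 23, 94.0 and 96.3 nt in MHY libraries 21 and 23, 88.1 and 94.7 nt in DMSO libraries 24 and 25, and 83.0 and 86.9 nt in MHY libraries 24 and 25. Those of Rps26, in the same order, were 102.8, 110.05, 107.96 and 108.5 nt after 24 h, followed by 95.8, 100.5, 96.4 and 103.0 nt for the 48 h libraries. The mean difference was -11.2 nt ± 3.97 (SD over 8 libraries; exact sign-flip permutation p = 0.00781, the smallest possible, adjusted p = 0.0742). Gpx4-ps2 was also shorter than Gpx4 in 8 of 8 libraries, with differences of -22.2 to -0.45 nt (mean difference -12.6 nt ± 6.61, exact sign-flip permutation p = 0.00781, adjusted p = 0.0742, over 8 libraries). It had 28 to 75 reads per library. Mapping quality of 10 or more was reached by 69.9% of Rps26-ps1 and 22.5% of Rps26 reads. For Gpx4-ps2 and Gpx4 these shares were 8.23% and 59.0%. Whether unequal placement of reads entered these differences was not tested.

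Over the 14 pairs of a model and its closest coding gene, the mean difference was below 0 in 9 and above 0 in 5. These pairs include Vmn2r97 with D10Wsu102e, where the match covered 58.3% of the model and vM21 lists no pseudogene. Among the latter, Gm15500 differed from Rpl5 by 7.92 nt ± 14.01 and Gm10175 from Atp5g2 by 6.30 nt ± 16.8 (SD over 8 libraries), each with the longer median on the model in 6 of 8 libraries. The other pairs with an unadjusted p under 0.05 had shorter tails on the model. Rpl37rt differed from Rpl37 by -7.13 nt ± 8.05, Gm9797 from Timm8a1 by -24.6 nt ± 23.0 and the Elob model from the coding transcripts of Elob, which encodes elongin B, by -7.40 nt ± 8.40 (SD over 8 libraries). Gm15500, Gm10175 and Gm9797 matched their coding gene exactly over the aligned part, and 0% of their reads reached a mapping quality of 10. Their reads cannot be told apart from those of the coding gene there, so their differences are uncertain. Gm9797 had only 2 to 8 reads per library. Rps2-ps10 and Rps2 differed by -0.082 nt ± 11.01, and Vmn2r97 and D10Wsu102e by -0.262 nt ± 3.44 (SD over 8 libraries). Medians over all reads were 130.96 nt for D10Wsu102e and 130.5 nt for Vmn2r97, and the difference was smaller than its spread between libraries.

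**Figure D4:**
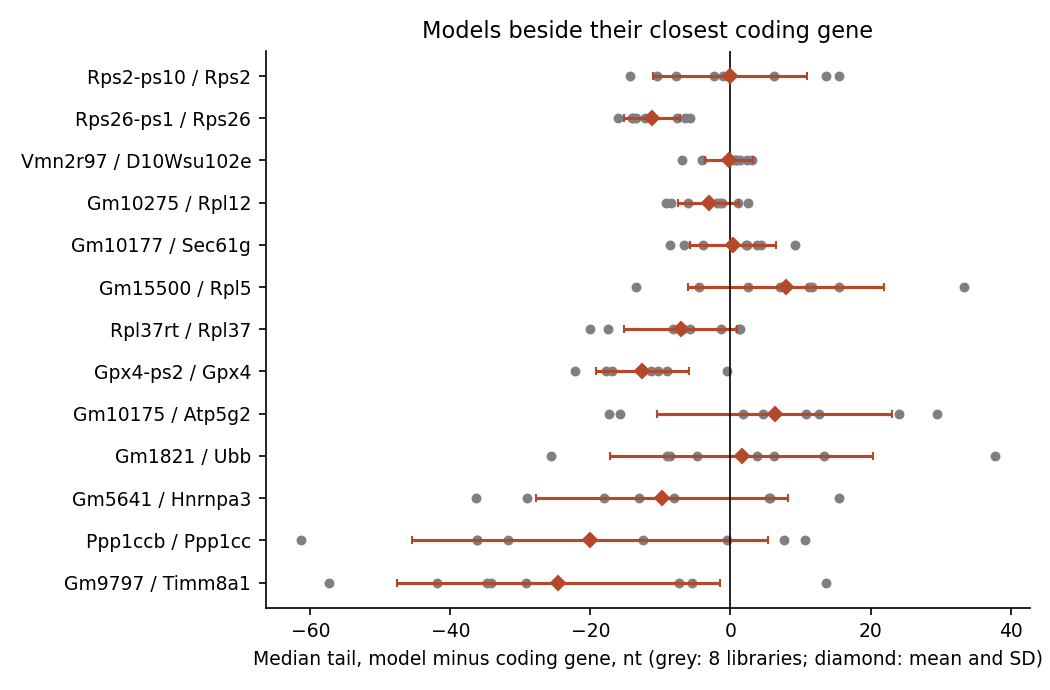
Median tail of the model minus that of its closest coding gene in nt, for all but 1 of the 14 pairs; grey points are the 8 libraries, diamonds the mean, and bars ± 1 SD over libraries. All 8 points of Rps26-ps1 and of Gpx4-ps2 lie left of 0, and the points spread widely in the pairs with few reads at the bottom.

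The reads were shared unequally within the pairs. Rps2-ps10 held 98.3% of the reads of its pair (17500 against 306 on protein-coding Rps2 transcripts, 97.9% to 98.6% over the libraries). Rps26-ps1 held 76.0% (71.7% to 80.03%), Vmn2r97 52.1% (49.3% to 54.8%) and Gm10275 29.1% (27.8% to 30.7%). The share of Rpl37rt was 6.80% (4.20% to 8.46%), and that of Gm5641, with 146 reads, 11.5% (8.13% to 19%). They are shares of placed reads, which the placement of near-identical sequence also sets.

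Among the 14 pairs together, mean tails weighted by the model's reads differed by -2.25 nt ± 3.16 (SD over 8 libraries; exact sign-flip permutation p = 0.0938). With mapping quality of 10 or more, where only 7 to 9 of the pairs had reads on both sides in a library, the difference was -0.802 nt ± 5.999 (SD over 8 libraries; exact sign-flip permutation p = 0.734). For the 70 genes with a coding transcript in the table, the models had tails 1.87 nt ± 2.45 longer than the coding transcripts of the same genes (SD over 8 libraries; exact sign-flip permutation p = 0.0859). With mapping quality of 10 or more, which left 27 to 35 genes in a library, it was 5.17 nt ± 11.7 (SD over 8 libraries; exact sign-flip permutation p = 0.234). Of 65 of these genes with 30 or more coding reads, 31 had the longer median on the model and 34 on the coding transcripts. Among these 65 genes the models held a median of 10.8% of the reads of their gene (0.533% to 84.5%), and 1500011B03Rik had the highest share. Of the genes with fewer coding reads, Itga6 had 102 reads on the model and 1 on coding transcripts. Rack1, a ribosome-associated scaffold protein gene, had 484 reads on the model and 9770 on coding transcripts, with medians of 94.0 and 94.7 nt.

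MHY was then compared with DMSO. The question was whether tails or levels of these models moved with the activator. At 24 h the pooled median tail was 103.9 nt ± 0.272 in DMSO and 101.0 nt ± 0.0778 in MHY libraries (SD, n = 2 each). The libraries of the groups did not overlap, with 104.1 and 103.75 nt in DMSO and 100.9 and 101.05 nt in MHY libraries. The difference of -2.95 nt had the smallest p that 2 against 2 libraries allow (two-sided exact permutation test, p = 0.333). At 48 h the medians were 99.2 and 101.5 nt in DMSO libraries 24 and 25 and 93.0 and 98.2 nt in MHY libraries 24 and 25. The difference of -4.79 nt was likewise at the smallest possible exact permutation p of 0.333 (n = 2 each), and it was -2.21 nt without MHY library 24. The deposited column sample held 3 names at 24 h and 2 at 48 h, which no label calls sequencing runs. Within the names of 24 h the differences were -3.71, -3.07 and -1.41 nt, and within those of 48 h -5.63 and -4.09 nt. At both times the exact permutation p of 0.333 shows only that the libraries of the groups did not overlap, and it does not measure the spread within a group.

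Other transcripts had pooled medians of 101.5 nt ± 1.34 in DMSO and 100.8 nt ± 0.976 in MHY libraries at 24 h, and of 97.97 nt ± 1.80 and 95.3 nt ± 4.16 at 48 h (SD, n = 2 each), with overlapping libraries at both times. At 48 h these were 96.7 and 99.2 nt in DMSO libraries 24 and 25 and 92.35 and 98.2 nt in MHY libraries 24 and 25. The median tail of models minus that of other transcripts changed with MHY by -2.23 nt at 24 h (exact permutation p = 0.333, n = 2 each) and changed by -2.12 nt at 48 h (exact permutation p = 0.333, n = 2 each). Both are at the limit of the design. At 24 h the change was -1.09 nt without DMSO library 21 and -3.37 nt without DMSO library 23. Without Rps2-ps10 the changes were -1.45 nt at 24 h and -0.662 nt at 48 h. The share of tails of 30 to 90 nt was higher with MHY by 2.81 points at 24 h and by 3.59 points at 48 h, without overlap of the libraries (exact permutation p = 0.333 each, n = 2 each). Without MHY library 24 the difference at 48 h was 1.52 points. The share under 30 nt was 1.42% ± 0.226 (DMSO) and 1.29% ± 0.0329 (MHY) at 24 h, with overlapping libraries. At 48 h it was 1.56% ± 0.162 and 2.29% ± 0.261 (SD, n = 2 each), a difference of 0.731 points without overlap (exact permutation p = 0.333). Among other transcripts the share under 30 nt differed by 1.22 points at 48 h, also without overlap, and by -0.338 points at 24 h. At 48 h it was 2.90 and 2.60% in DMSO libraries 24 and 25 and 4.52 and 3.41% in MHY libraries 24 and 25. At 24 h it was 2.36 and 2.76% in DMSO libraries 21 and 23 and 2.26 and 2.19% in MHY libraries 21 and 23. Their share of 30 to 90 nt differed by 0.797 points at 24 h and 0.885 points at 48 h, with overlapping libraries at both times. At 48 h it was 42.1 and 40.5% in DMSO libraries 24 and 25 and 43.8 and 40.6% in MHY libraries 24 and 25.

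Single genes were fitted with limma on the mean tail in nt, weighted by reads, over all genes with at least 10 reads in each library, of which 22 of 1936 were processed_transcript models. The call rule was a Benjamini-Hochberg adjusted p under 0.05 over all genes. At 24 h no model was called, 0% of all genes were called, and 2 models had an unadjusted p under 0.05. At 48 h, 2 of the 22 models were called, both with shorter tails, beside 0.775% of all genes (15 of 1936, all with shorter tails). The median change of the models was -6.11 nt, and that of all genes -3.23 nt. In the test of 48 h against 24 h, 0 models and 0% of all genes were called by limma, and 0 models had an unadjusted p under 0.05.

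The called models were Rps2-ps10 and Vmn2r97. Mean tails of Rps2-ps10 at 48 h were 103.2 and 103.5 nt in DMSO libraries 24 and 25 and 95.3 and 101.3 nt in MHY libraries 24 and 25. Both MHY libraries were lower, and the MHY library numbered 24 was the lower of them. The fitted change was -5.79 nt ± 1.37 (SE, limma, adjusted p = 0.0382). It was -2.10 nt without MHY library 24 (limma, adjusted p = 0.955). The call was also lost without DMSO library 25 (adjusted p = 0.718), DMSO library 24 (0.103), DMSO library 21 (0.0977), DMSO library 23 (0.0905) or MHY library 21 (0.0684), in limma fits of the 7 libraries left, with changes of -5.91 to -5.60 nt. With all 8 libraries and mapping quality of 10 or more the change was -5.61 nt (limma, adjusted p = 0.0551). At 24 h its means were 106.8 and 106.6 nt in DMSO and 103.0 and 102.7 nt in MHY libraries, a change of -3.82 nt ± 1.53 (limma, adjusted p = 0.999).

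Mean tails of Vmn2r97 at 48 h were 144.0 and 144.0 nt in DMSO libraries 24 and 25 and 133.0 and 136.5 nt in MHY libraries 24 and 25, so that the groups did not overlap. The fitted change was -9.44 nt ± 1.94 (SE, limma, adjusted p = 0.0185). Without MHY library 24 it was -7.50 nt (limma, adjusted p = 0.688), without DMSO library 25 -9.47 nt (limma, adjusted p = 0.685), without DMSO library 24 -9.42 nt (limma, adjusted p = 0.0515), and with mapping quality of 10 or more -6.11 nt (limma, adjusted p = 0.373). Its means at 24 h were 146.4 and 148.7 nt in DMSO and 142.4 and 144.6 nt in MHY libraries, a change of -4.38 nt ± 2.29 (limma, adjusted p = 0.999). Both calls at 48 h were lost in a fit restricted to the 48 h libraries, where the changes were the same (-5.79 and -9.44 nt) and the adjusted p was 0.408 for Rps2-ps10 and 0.203 for Vmn2r97 (limma). D10Wsu102e, the closest coding gene of Vmn2r97, also had shorter tails with MHY at 48 h. Its medians were 131.5 and 138.2 nt in DMSO libraries 24 and 25 and 121.7 and 128.8 nt in MHY libraries 24 and 25. The shift was thus not particular to the Vmn2r97 model.

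**Figure D5:**
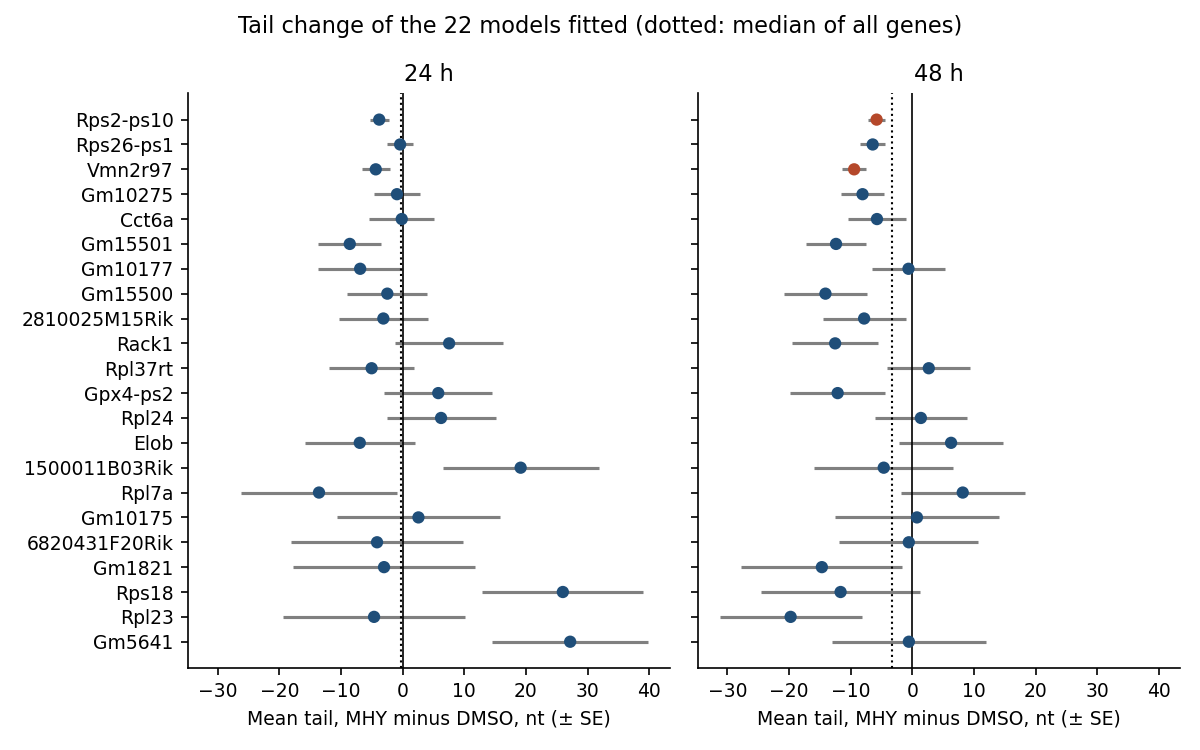
Change of the mean tail with MHY (nt, MHY minus DMSO, ± SE of the limma fit) for the 22 models with at least 10 reads in each library, ordered by reads, at 24 h (left) and 48 h (right). Red points are the 2 models called at an adjusted p under 0.05 (Rps2-ps10 and Vmn2r97 at 48 h), and the dotted line is the median of all 1936 genes.

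Further copies of ribosomal protein genes did not pass at 48 h. The change was -6.43 nt ± 2.02 for Rps26-ps1 (limma, adjusted p = 0.207), -8.07 nt ± 3.48 for Gm10275 (adjusted p = 0.414) and -14.1 nt ± 6.67 for Gm15500 (adjusted p = 0.510). Rpl37rt had a change of 2.68 nt ± 6.71. Over the 22 models, 5 had an estimate above 0 at 48 h and 7 at 24 h.

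The share of tails of 30 to 90 nt was fitted with limma as log2 odds. At 24 h 0 of 22 models and 0% of all genes were called, and 2 models had an unadjusted p under 0.05. At 48 h 1 of 22 models was called, Rps2-ps10, beside 0.258% of all genes. Its share was 41.9 and 39.8% in DMSO libraries 24 and 25 and 51.1 and 44.9% in MHY libraries 24 and 25. The log2 odds rose by 0.47 ± 0.07 (SE, limma, adjusted p = 0.000418), by 0.25 without MHY library 24 (limma, adjusted p = 0.964) and by 0.39 without DMSO library 25 (limma, adjusted p = 0.264). At 24 h the share was 37.0 and 37.9% in DMSO and 42.5 and 42.4% in MHY libraries, which did not overlap (log2 odds 0.30 ± 0.08, limma, adjusted p = 0.360). When only the DMSO and MHY libraries 21 and 23 entered the fit, the adjusted p was 0.0282 (limma).

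For tails under 30 nt, 0 of 22 models were called at either time, beside 0% of all genes at 24 h and 0.362% at 48 h. By limma 1 model had an unadjusted p under 0.05 at 24 h and 4 at 48 h. The largest estimate at 48 h belonged to Gm10275, with shares of 0 and 0.238% in DMSO libraries 24 and 25 and 2.92 and 1.90% in MHY libraries 24 and 25, on 263 to 420 reads per library. Its log2 odds differed by 3.25 ± 0.66 (limma, adjusted p = 0.121). It passed without MHY library 21 or 23 of 24 h (limma, adjusted p = 0.0160 and 0.0215) and among genes with 30 or more reads in each library (limma, adjusted p = 0.0483). A share of 0 in 1 library came from 269 reads.

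Read shares of the set moved little. The models took 2.46 and 2.48% of reads in DMSO libraries 21 and 23 and 2.58 and 2.44% in MHY libraries 21 and 23 (difference 0.0388 points, exact permutation p = 1, n = 2 each). At 48 h they took 2.43 and 2.55% in DMSO libraries 24 and 25 and 2.60 and 2.63% in MHY libraries 24 and 25, which did not overlap (difference 0.130 points, exact permutation p = 0.333, n = 2 each; 0.0673 points without DMSO library 24). Without the leading 3 genes the latter difference was 0.00966 points. In bulk RNA, fewer cells with a transcript and less of it per cell cannot be told apart.

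Levels were fitted with limma voom on reads per gene, over the 4111 genes that reached 10 reads in 2 or more libraries, of which 42 were processed_transcript models. None of the 42 was called at 24 h (0.073% of all genes), at 48 h (1.68%) or in the test of 48 h against 24 h (0.341%). By limma 2, 3 and 3 models had an unadjusted p under 0.05 in these comparisons. The level of Vmn2r97 was 2597 and 2865 RPM (reads of the model scaled to the same total in each library) in DMSO libraries 24 and 25 and 3393 and 3970 in MHY libraries 24 and 25, without overlap. The log2 change was 0.30 ± 0.11 (limma, adjusted p = 0.153), and it was called when libraries were scaled by their totals (0.40, limma, adjusted p = 0.00133), without MHY library 24 (0.48, limma, adjusted p = 0.0232) and with no filter on reads (0.26, limma, adjusted p = 0.00860). At 24 h the log2 change was 0.09 ± 0.12.

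The leading copies were not called in level. Rps2-ps10 had 8647 and 8914 RPM in DMSO and 9028 and 9082 in MHY libraries at 24 h, and a log2 change of 0.03 ± 0.09. At 48 h it had 8761 and 9092 RPM in DMSO libraries 24 and 25 and 9847 and 8968 in MHY libraries 24 and 25, which overlapped, and the log2 change was -0.03 ± 0.08 with the size factors and 0.08 ± 0.06 when libraries were scaled by their totals. Rps26-ps1 had log2 changes of -0.02 ± 0.11 and -0.20 ± 0.11. Gm10275 had a log2 change of -0.36 ± 0.14 at 48 h (limma, adjusted p = 0.204), which was -0.13 without MHY library 24. The Npm1 model, from the gene of the nucleolar protein nucleophosmin, differed by -1.39 ± 0.51 at 48 h (limma, adjusted p = 0.166). Its level was 32.8 and 75.8 RPM in DMSO libraries 24 and 25 and 16.05 and 37.4 RPM in MHY libraries 24 and 25, on 5 to 24 reads and with overlapping groups. The log2 change was -0.55 without MHY library 24 (limma, adjusted p = 0.910) and -1.88 without DMSO library 24 (limma, adjusted p = 0.0323). The Cct6a model differed by -0.42 ± 0.17 at 24 h (limma, adjusted p = 0.954), from 612 and 790 RPM in DMSO libraries 21 and 23 to 520 and 533 in MHY libraries 21 and 23.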

How the data were processed

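Each line of the deposited table is an alignment of a read to a GENCODE transcript, made by the authors with minimap2, with a tail length from Nanopolish in nt, not normalized. Their annotation was GENCODE vM17 on mm10, base calling was by Guppy and demultiplexing by Deeplexicon. Lines with the tag PASS were used. The deposited mapping quality is a score and the deposited barcode confidence a fraction from 0 to 1. A read was counted once per transcript; mitochondrial transcripts and pseudogene biotypes were set aside. Groups came from the labels; the table's library names show the group, not which replicate. Pooled values per library were compared by exact permutation tests, single genes by limma 3.58.1 in R 4.3.3 (tails weighted by reads, log2 odds with 0.5 read added, voom with median-of-ratios size factors, 8 libraries in 1 fit, a gene's models and its other transcripts counted separately), tested on simulated data. Models were matched to vM21 sequences with blastn 2.17.0. Models to name were the 20 most read without and 5 with a coding transcript, the 5 shortest and longest medians, all called, and fixed lists of known noncoding genes. Not all of these are named in the text. Npm1 and Itga6 were named after their values were seen. Members and lists were chosen with earlier results of these data known. The values of 1 copy beside its coding gene are not reported here. Intervals cover counting error only.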

Additional observations from a re-analysis of the deposited data

Results flagged for a closer look

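Of 24 sets of 8 library values that were examined, 1 held a library far from the others, and chance flags about 1 set in 20. The median tail of the 1500011B03Rik model minus that of the coding transcripts of the same gene was -117.0 nt in DMSO library 21, and the next value was -38.1 nt. The coding transcripts had 3 reads in that library.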

How the results depend on the processing

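Of the 2-against-2 comparisons of pooled reads, none could pass at any setting. The difference in the share under 30 nt at 24 h turned to 0.0731 points with barcode confidence of 0.9 or more and ran from -0.289 to 0.0311 points without single libraries, and that in the share of library reads at 24 h from -0.0303 to 0.108 points. Against other transcripts, the median difference over 8 libraries lost its call with that barcode limit (1.27 nt) and without models of coding genes (1.11 nt) and ranged from 1.01 to 1.58 nt without single libraries. The share of 30 to 90 nt passed with mapping quality of 10 or more (-1.61 points) and without Rps2-ps10 (-2.85 points) and ranged from -1.54 to -0.799 points. Without the leading 3 genes, an alternative added after the data had been seen, the 3 differences were -0.457 nt, -0.123 points and 0.309 points. Each count of models called is given with the share of all genes called in the same fit. Mean tail calls at 48 h fell from 2 (0.775%) to 0 with mapping quality of 10 or more (8 models tested, 0.745%), with the 4 libraries of the time point (0.0406%) and without weights (0%), to 1 with log2 tails (0.981%), and to 0 to 2 without single libraries (0% to 2.79%). Calls under 30 nt at 48 h were 0 (0.362%), 1 with the replicate block (0.878%) and with 30 or more reads in each library (1.32%), and 0 to 1 without single libraries (0% to 0.511%). Calls of 30 to 90 nt at 24 h were 1 with the 4 libraries of the time point (0.197%) and with the replicate block (0.207%), and at 48 h 0 without weights (0%) and 0 to 2 without single libraries (0% to 1.52%). Abundance calls at 48 h were 1 with the replicate block (1.87%) and with library totals (1.53%), 7 of 1230 models with no filter on reads (1.19%), and 0 to 1 without single libraries (0.415% to 3.58%), and the test of 48 h against 24 h gave 1 of 1230 with no filter (0.239%). Without DMSO library 25, the change of the 30 to 90 nt share of Gm10275 at 48 h was -0.13 (log2 odds), and without MHY library 24 that of Vmn2r97 was -0.15; without single libraries they ranged up to 0.78 and 0.54. The cause was not tested. Library numbers shared by treatments gave correlations of deviations of 0.0161 at 24 h and 0.139 at 48 h in log2 levels, with only 2 pairs per time point and no label that ties them, so the numbers were not taken to pair libraries, and pooled differences are the same with the block by construction (-2.95 nt and -4.79 nt for the median tail). With the replicate block, adjusted p (limma) was 0.0114 for the 30 to 90 nt share of Rps2-ps10 at 24 h, 0.0346 for tails under 30 nt of Gm10275 and 0.0214 for the level of Vmn2r97 at 48 h; the 3 calls at 48 h remained. Depth limits the models with few reads: 22 of 89 genes could be fitted for tails.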
